A study of Mus musculus with 4 samples.

Results

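Galectins are small proteins that bind beta-galactoside sugars through a conserved carbohydrate recognition domain, and the genes described here are 6 of the mouse galectins together with the galectin-3 binding protein. They were Lgals1, Lgals3, Lgals4, Lgals7, Lgals8, Lgals9 and Lgals3bp, and all 7 were found by symbol among the 24346 genes listed in every library. The genes were chosen by family name after Lgals7 had been seen among the largest increases between the same groups of libraries, so that the differences given for them are a description, without a test, and support nothing on their own. RNA-seq was performed on cultures started from cells positive for both CD49f and CD34, sorted from dorsal skin epithelial cells of adult C3H/HeN mice. The paper terms these cells hair follicle stem cells (HFSCs). They were cultured in the serum-free medium M-CnT with 1 passage per week. The groups were HFSCs after 10 passages (10p-HFSCs, n = 2 libraries) and HFSCs after 48 passages (48p-HFSCs, n = 2 libraries), and no agent is named for either. The labels do not say whether libraries of a group came from separate cultures or animals, so the spread between them may be technical, and p-values measure only that spread.

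Galectins are made without a signal peptide, work in the cytosol and nucleus, and leave the cell by an unconventional route to cross-link glycoproteins at the surface. Prototype galectins (galectin-1 and galectin-7) carry a single sugar-binding domain and can pair, the chimera galectin-3 joins one such domain to a flexible tail through which it oligomerizes, and tandem-repeat galectins (galectin-4, galectin-8 and galectin-9) hold a pair of different domains on a chain. In skin, galectin-7 is known as a product of stratified epithelium and of keratinocytes, galectin-3 is broadly expressed by epithelial cells, and galectin-1 is abundant in mesenchymal as well as many cultured cells. Lgals3bp encodes a secreted glycoprotein that galectin-3 binds and is not itself a galectin.

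Among the members, Lgals7 and Lgals4 are neighbours on chromosome 7 of mm10 (GRCm38), with their genes annotated by GENCODE at 28863853 to 28866284 and at 28833854 to 28841708, both on the plus strand, with a gap of 22.1 kb. Of the 7 genes, 6 were matched to a promoter sequence of RefSeq (build GRCm38.p6), namely all but Lgals1. The 250 bases before the annotated start are shown for Lgals7, Lgals4 and Lgals9, the first pair because neighbouring galectin genes differed most from each other and the last because it held a motif that few promoters hold. Capitals mark matches, on either strand, to the motifs searched: TATAAA (the TATA box), TGANTCA (the AP-1 motif), GGGCGG (the Sp1 motif) and an interferon-stimulated response element written as GAAA, any 2 bases and GAAA. None of the motifs overlapped another in these windows. Lgals7 lies at chr7:28864136-28864385 (plus strand), Lgals4 at chr7:28833544-28833793 (plus strand) and Lgals9 at chr11:78984925-78985174 (minus strand). The Lgals7 stretch lies inside the gene as GENCODE draws it, because RefSeq places the start further along.
Lgals7: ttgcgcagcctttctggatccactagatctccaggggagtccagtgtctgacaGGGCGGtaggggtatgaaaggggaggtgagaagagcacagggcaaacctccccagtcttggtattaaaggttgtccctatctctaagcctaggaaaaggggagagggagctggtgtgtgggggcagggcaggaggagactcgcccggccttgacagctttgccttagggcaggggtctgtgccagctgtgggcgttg
Lgals4: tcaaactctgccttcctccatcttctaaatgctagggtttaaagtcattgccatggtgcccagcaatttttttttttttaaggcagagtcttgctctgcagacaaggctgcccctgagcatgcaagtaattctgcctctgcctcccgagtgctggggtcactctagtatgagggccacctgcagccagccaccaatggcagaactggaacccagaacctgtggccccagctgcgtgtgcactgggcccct
Lgals9: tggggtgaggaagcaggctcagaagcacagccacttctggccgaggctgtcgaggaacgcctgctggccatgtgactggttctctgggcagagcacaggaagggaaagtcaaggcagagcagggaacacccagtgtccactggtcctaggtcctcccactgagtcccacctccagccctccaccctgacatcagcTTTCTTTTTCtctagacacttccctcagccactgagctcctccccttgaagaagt
Counted over the whole RefSeq window, which also holds 50 bases after the start, the response element was found in Lgals9 alone among the 6 members, starting 55 bases before the start in the stretch above and once more after the start. Over all 32851 promoters of the table, 3.44% held it. GGGCGG was found in Lgals7 (197 bases before the start), Lgals3 (7 bases before the start and again after it) and Lgals4 (after the start), and in 35.7% of all promoters. TATAAA, held by 13.6% of all promoters, and TGANTCA, held by 7.81%, were found in none of the 6 windows. A match describes these letters only.

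Values are FPKM as computed by the authors, by definition read fragments normalised to the length of the transcript and to the size of the library. They are therefore levels per length that can be compared between genes. Size factors by median-of-ratios scaling lay between 1.0003 and 1.0111 in every library, although the summed FPKM given below differed widely. By this measure the values already stood at a common level between libraries, and that scaling changed little. The step that set this level was not tested. Differences are given as 48p- minus 10p-HFSCs on the log2(FPKM + 1) scale, where changes of weakly expressed genes come out too small. Read totals are not part of these values, and a relative depth was read from the most common ratio of low FPKM. It was 71.6%, 82.9% and 46.7% of that of replicate 1 of 10p-HFSCs in, respectively, the second 10p-HFSC and the first and second 48p-HFSC libraries. This relative depth takes in any scaling between libraries, so it does not rank them by read totals. Replicate 2 of 48p-HFSCs stood apart in its summed FPKM, 1414950 against 581516 to 719012 in the other libraries. Of 11018 tested genes, 1871 differed at least 2-fold between the 48p-HFSC replicates, against 151 between the 10p-HFSC replicates. Of 8 markers of hair follicle stem cells and basal keratinocytes, 6 passed the filter on low values, with 1 called higher (Itga6) and 1 lower (Sox9, limma adjusted p = 0.039), and their summed FPKM was 3502 and 2880 at 10 passages against 12722 and 7718 at 48, mostly from Krt5 and Krt14, which were not called. Krt15 was at 425 and 18.8 in the 48p-HFSC replicates. Cd34 (at most 0.234) and Lhx2 (at most 0.0241) were near 0 in every library although the cells had been sorted on CD34 before culture. The paper's own assays read otherwise, with most cells CD34-immunopositive at 10 and at 48 passages. By qRT-PCR it reports that CD34 RNA was kept and that Lhx2 and Sox9 rose at 48 passages. Because RNA of whole cultures was sequenced, a larger share of cells that express a gene and more RNA per cell cannot be told apart.

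Lgals7, Lgals3 and Lgals8 had clearly higher levels in 48p-HFSCs, Lgals9 was about 2-fold higher, Lgals4 was low in every library, and Lgals1 and Lgals3bp differed more between the 48p-HFSC replicates than between the groups. Of the 7 genes, 3 were called higher by the criteria used for all genes (an adjusted p-value from limma below 0.05 with a change of 2-fold or more) and 4 were not called. Over all tested genes 10.8% were called higher and 9.15% lower. Since these libraries were already used to pick the genes, nothing is read from these counts. For 4 genes the 48p-HFSC values exceeded each 10p-HFSC value and for 1 they were lower than each, where 31.7% and 34.3% of all tested genes did the same. The median difference of the 7 genes was 0.96, beside -0.03 for all tested genes. Rescaling to TPM moved the latter to -0.56, so that changes under it are relative to this shift, and the 7 genes then had a median of 0.39. It also took the share of higher among all called genes from 54.1% to 43.4%. The calls leaned on the 10p-HFSC pair, since without its replicate 1 only 35 of all tested genes were called higher and without its replicate 2 only 36.

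**Figure D1:**
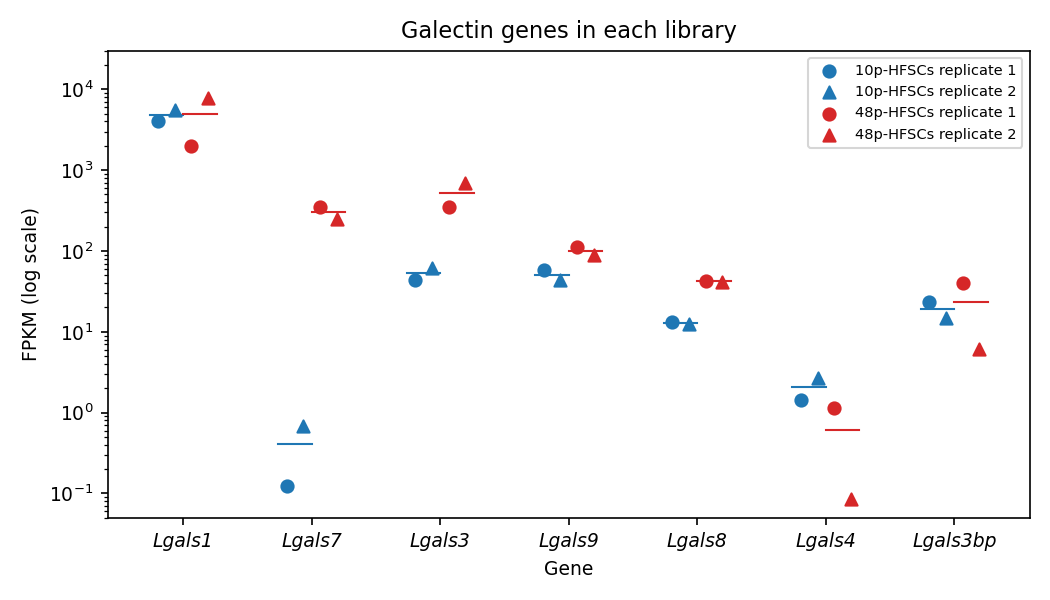
FPKM (log scale) of the 7 genes in each of the 4 libraries, with circles for replicate 1, triangles for replicate 2 and a line at each group mean. The 48p-HFSC symbols of Lgals7, Lgals3, Lgals9 and Lgals8 lie above their 10p-HFSC symbols, while those of Lgals1 and Lgals3bp lie on either side of them.

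Lgals7, the prototype galectin of stratified epithelia, had FPKM values of 0.124 and 0.691 at 10 passages and 351 and 247 at 48 passages. The groups did not overlap, and the gene passed the filter on low values only through the 48p-HFSC libraries. Corrected for relative depth, the 10p-HFSC values stood in the ratio of 1 to 4 with a deviation under 1%, so that they may rest on very few reads and no fold change is given. The log2 difference was 7.75 (standard error 0.33), the 4th largest of 11018 tested genes. It depended on the value added before the logarithm and became 9.45 with a pseudocount of 0.1. With 1 library left out at a time it stayed between 7.45 and 8.04. Among the 7 genes Lgals7 was the lowest in both 10p-HFSC libraries, and it was the second highest in replicate 1 and the third highest in replicate 2 of 48p-HFSCs. Its place among all listed genes moved from 12313 and 10780 to 232 and 550.
Markers of suprabasal keratinocytes, the layers above the basal one, are given beside Lgals7. Of 5 such markers 4 were matched, and Krt1, Krt10 and Lor were listed at 0 in all 4 libraries. Ivl, which encodes involucrin, was at 8.12 and 8.49 FPKM at 10 passages against 84.1 and 13.1 at 48 passages, and was not called (limma adjusted p = 0.14). Its highest value was in the library in which Lgals7 was highest as well. Keratins of simple epithelium were also higher in 48p-HFSCs, and the summed FPKM of 4 of them was 393 and 337 at 10 passages against 1442 and 2690 at 48. Within 48p-HFSCs, Krt8 and Krt18 were higher in replicate 2, where Lgals7 was lower, and Krt19 was higher in replicate 1. Krt7 was at 1.52 and 0.789 against 2.73 and 2.80 and was not called (limma adjusted p = 0.088). Krt18 was at 0.286 and 0.285 against 329 and 1120, passing the filter only through the 48p-HFSC libraries, Krt19 was at 14.2 and 12.1 against 155 and 48.8 (called higher, limma adjusted p = 0.023), and Krt8 was at 377 and 323 against 956 and 1519 (not called, limma adjusted p = 0.053). The part of these cells in the Lgals7 values was not tested. Summed markers of endothelial cells were low in every library (at most 2.38). Those of melanocytes were also low, at 0.486 and 0.640 at 10 passages against 2.15 and 10.8 at 48. In 48p-HFSCs most of that sum was Tyr (1.33 and 9.48).

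No tested gene that flanks Lgals7 was called, beside 10.8% called higher and 9.15% lower among all tested genes. With so few flanking genes tested, nothing is read from this absence. Lgals4, 22.1 kb upstream, was the only member below its 10p-HFSC values in both 48p-HFSC libraries. Capn12, a calpain gene 15.1 kb downstream, was at 0.0559 and 0.208 FPKM at 10 passages against 0.337 and 0.638 at 48 passages and did not pass the filter on low values. Ech1, an enzyme gene of fatty acid oxidation 31.6 kb upstream, was at 76.8 and 84.8 against 143 and 150 (limma adjusted p = 0.076), and Actn4, which encodes an actin cross-linker 27.0 kb downstream, was at 90.1 and 66.3 against 117 and 147 (limma adjusted p = 0.13). Hnrnpl and Eif3k, the next genes outward, were not called either (limma adjusted p = 0.94 and 0.36).

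**Figure D2:**
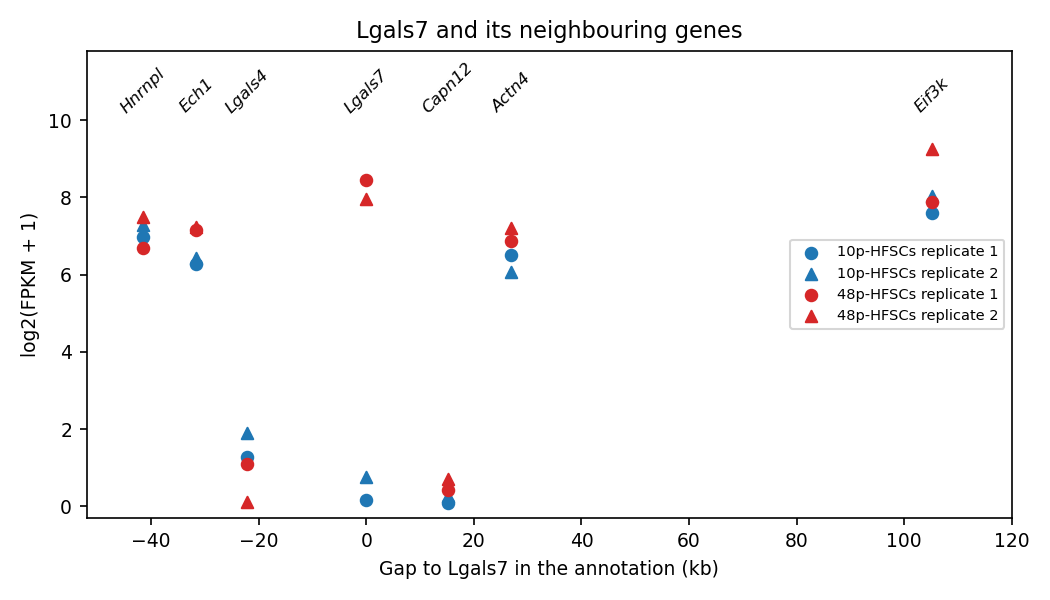
Level, as log2(FPKM + 1), of Lgals7 and the 3 nearest listed genes on each side, by their gap to Lgals7 in kb, with blue for 10p-HFSCs, red for 48p-HFSCs, circles for replicate 1 and triangles for replicate 2. The groups stand far apart at Lgals7, whose log2 difference was 7.75, and close together at the flanking genes.

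Lgals3, the chimera galectin, had FPKM values of 44.0 and 62.0 at 10 passages and 351 and 695 at 48 passages. The groups stood well apart, although the 48p-HFSC libraries differed 1.98-fold from each other. The mean was 53.0 ± 12.7 (SD, n = 2) at 10 passages and 523 ± 243 (SD, n = 2) at 48, a 9.86-fold ratio of means and a log2 difference of 3.22 (standard error 0.43). With single libraries left out, the difference ranged from 2.72 to 3.71, and the gene was not called without either 10p-HFSC library, and it was 2.64 when each library was rescaled to the same summed FPKM (TPM). Lgals3 and Lgals7 had almost the same level in replicate 1 of 48p-HFSCs (both 351 after rounding), while in replicate 2 Lgals3 was the higher.

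The tandem-repeat galectins did not move alike. Lgals8, whose product binds sugars exposed on damaged endosomes, was at 13.2 and 12.4 FPKM at 10 passages against 42.7 and 41.8 at 48 passages. Its replicates lay closer together than those of any other member, and the mean was 12.8 ± 0.546 (SD, n = 2) at 10 passages and 42.2 ± 0.586 (SD, n = 2) at 48, a 3.30-fold ratio. The log2 difference of 1.65 (standard error 0.24) fell to 1.10 under rescaling to TPM, where the gene was no longer called, as it was not without either 10p-HFSC library. The annotation of Lgals8, on chromosome 13 from 12439415 to 12464944, overlaps that of Heatr1 by 0.874 kb on the opposite strand, and the strand setting of the counting is not stated. Heatr1 was at 9.99 and 5.89 FPKM at 10 passages against 6.55 and 5.89 at 48 passages, and its part in the Lgals8 values was not tested.
Lgals9, which encodes a ligand of the immune receptor TIM-3, was at 57.6 and 44.4 FPKM at 10 passages against 111 and 88.9 at 48 passages. The groups did not overlap, with a 1.96-fold ratio of means and a log2 difference of 0.96 (standard error 0.29). It was not called under any alternative, also where its difference was above 1 (1.15 without replicate 1 of 10p-HFSCs and 1.12 without replicate 2 of 48p-HFSCs). After rescaling to TPM the difference was 0.39. Leukocytes also express Lgals9, and of 5 leukocyte markers Cd3e and Tyrobp were listed at 0 in every library and Ptprc was at most 0.0711. Lyz2 was at 0.286 and 0.479 FPKM at 10 passages against 3.04 and 1.96 at 48 passages. Lyz2 and Cd74 were called higher, both passing the filter only through the 48p-HFSC libraries. The summed level of the 5 markers was 0.641 and 0.694 FPKM at 10 passages against 64.3 and 104 at 48 passages, most of it from Cd74 (61.2 and 102 in 48p-HFSCs), and its part in the result was not tested.
Lgals4, best known from the intestinal epithelium, was at 1.42 and 2.70 FPKM at 10 passages against 1.14 and 0.0846 at 48 passages. Corrected for relative depth, these values stood as 36, 49, 24 and 1, whole numbers to within 0.037%. The last, from replicate 2 of 48p-HFSCs, may therefore stand for as little as 1 read. The log2 difference was -0.97 (standard error 0.41) and was -0.48 without that library and -2.11 with a pseudocount of 0.1. Without replicate 1 of 48p-HFSCs it was -1.47 and the gene was called lower. In some mouse strains a close copy, Lgals6, lies beside Lgals4, and reads of the pair could have been divided between them. Lgals6 was at most 0.00175 in any library, and its values were not whole multiples of a step (within 1%). Sharing of reads was not tested.

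Lgals1, the most abundant member in every library, showed no difference larger than the spread between replicates in the deposited FPKM. It was at 4089 and 5486 FPKM at 10 passages against 1997 and 7884 at 48 passages. The 48p-HFSC libraries lay on both sides of the 10p-HFSC libraries, with means of 4788 ± 988 (SD, n = 2) and 4941 ± 4163 (SD, n = 2) and a log2 difference of -0.26 (standard error 1.20). Without replicate 1 of 48p-HFSCs the difference was 0.73, and without replicate 2 it was -1.25. Quantile normalization gave -1.07 (standard error 0.22), where the gene was called lower, and rescaling to TPM gave -0.84 (standard error 0.29), where it was not. The summed FPKM of the 6 galectins followed Lgals1, which made up 97.2% and 97.8% of it at 10 passages against 70.0% and 88.0% at 48. The share of Lgals3 in this sum went from 1.05% and 1.11% to 12.3% and 7.76%, and that of Lgals7 from 0.00294% and 0.0123% to 12.3% and 2.76%.
Lgals1 is also a gene of mesenchymal cells. Of 7 fibroblast markers, Vim and Col1a2 passed the filter on low values and were called lower in 48p-HFSCs, Col1a2 passing only through the 10p-HFSC libraries, and Dcn and Lum, defining fibroblast markers, were listed at 0 in all 4 libraries. Col1a1 (at most 0.903), Col3a1 (at most 0.195) and Pdgfra (at most 0.284) were near 0 in every library. The summed level of the 7 markers went from 353 and 388 to 2.50 and 3.32 in 10p- and 48p-HFSCs. At 10 passages it came almost wholly from Vim (284 and 327) and Col1a2 (67.6 and 59.3). The part of these markers in the Lgals1 values was not tested.

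Lgals3bp also diverged between the 48p-HFSC replicates, in the opposite direction to Lgals1. It was at 23.1 and 15.0 FPKM at 10 passages against 40.1 and 6.18 at 48 passages, a 6.49-fold difference between replicates of one group. Only 0.481% of tested genes differed as much between these libraries, in either direction, and 1.42% as much as Lgals1. The log2 difference of -0.19 (standard error 0.79) was set by the choice of library, at 1.07 without replicate 2 and -1.45 without replicate 1 of 48p-HFSCs.
Transcript length moved with part of this divergence. Among genes with a transcript of up to 1000 bases, the median of replicate 2 minus replicate 1 in 48p-HFSCs was 0.86 on the log2(FPKM + 1) scale (590 genes), and among those over 4000 bases it was -0.22 (3873 genes). In 10p-HFSCs the corresponding medians were 0.38 and -0.17. Lgals1, with a longest annotated transcript of 800 bases, was at 1.98, above the 90th percentile of 1.69 for its length class. Lgals7, of nearly the same length (754 bases), went the other way at -0.51. Lgals3bp (2330 bases) was at -2.52, far below the 10th percentile of -0.87 for genes of over 2000 and up to 4000 bases. With each library corrected for transcript length and GC content, the differences between groups were -0.94 for Lgals1, -0.39 for Lgals3bp, 2.75 for Lgals3 and 7.09 for Lgals7.

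**Figure D3:**
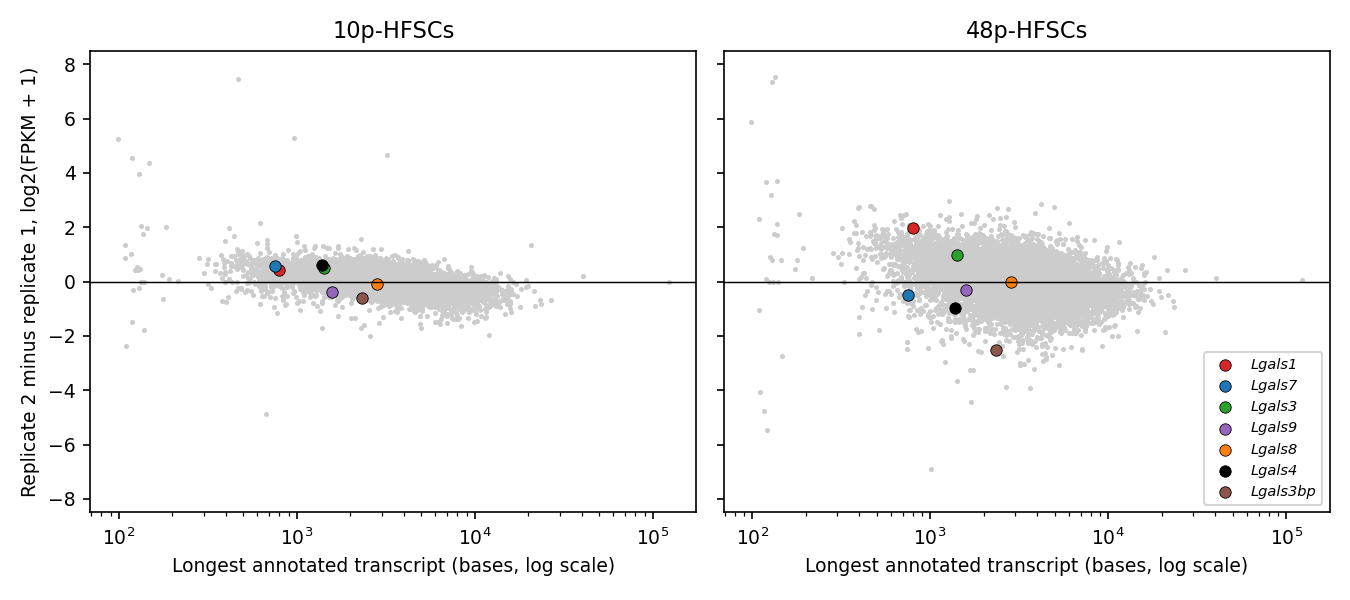
Replicate 2 minus replicate 1 in log2(FPKM + 1), in 10p-HFSCs (left) and 48p-HFSCs (right), against the longest annotated transcript in bases (log scale), with grey points for all tested genes of known length and colored points for the 7 genes. In 48p-HFSCs the grey points spread more widely, and Lgals1 (1.98) and Lgals3bp (-2.52) lie at opposite edges of them.

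**Figure D4:**
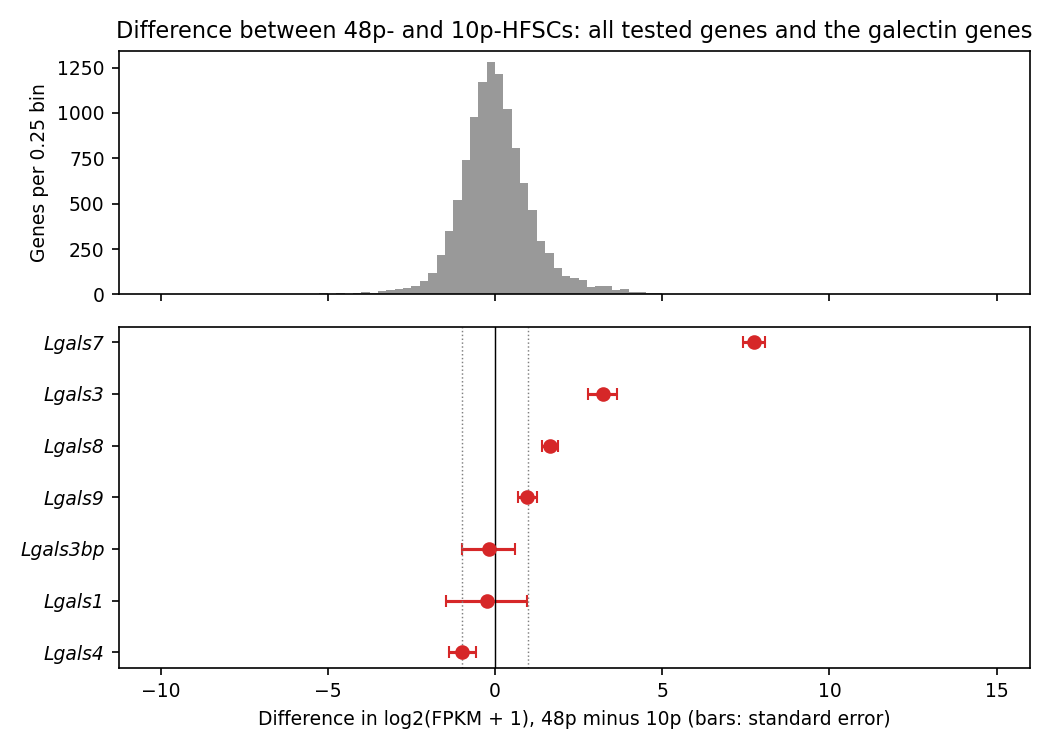
Upper panel, number of tested genes by their difference in log2(FPKM + 1), 48p- minus 10p-HFSCs, in bins of 0.25. Lower panel, the same difference for each of the 7 genes with its limma standard error, where dotted lines mark 2-fold. Lgals7 (7.75) and Lgals3 (3.22) lie in the upper tail, and the bars of Lgals1 and Lgals3bp cross 0.

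Other genes of the family, which were not among the 7, were nearly all close to 0. Lgalsl encodes a galectin-related protein that lacks sugar binding, and fell from 28.0 and 31.2 to 11.0 and 6.13 (-1.72 on the log2 scale with a standard error of 0.33, adjusted p = 0.019 by limma). Its decrease was opposite to the direction of Lgals3, Lgals7 and Lgals8, and it was no longer called when either 10p-HFSC library was left out. Lgals2 was at most 0.605, and Lgals12, the galectin of fat cells, at most 0.0924. Corrected for relative depth, Lgals2 stood as 3, 1, 4 and 2 and Lgals12 as 1, 2, 4 and 0 in the order of the libraries, too few to compare. Grifin, a lens protein gene, was listed at 0 throughout.

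Around the members, 36 other neighbouring genes were taken as the 3 nearest on each side, and 26 of them were tested. Of these, 2 were called higher and 1 lower, with a median log2 difference of -0.16, beside 10.8% and 9.15% of all tested genes. The genes called were Ero1lb and Gpr137b-ps, both over 100 kb from Lgals8, and Pdxp, 7.21 kb from Lgals1. Ero1lb was at 0.678 and 0.744 FPKM at 10 passages against 3.51 and 5.50 at 48. It passed the filter only through the 48p-HFSC libraries, so no p-value is given for it. Gpr137b-ps and Pdxp had limma adjusted p = 0.032 and 0.021. These 3 calls were lost under rescaling to TPM (limma adjusted p = 0.25 for Gpr137b-ps and 0.063 for Pdxp) and without either 10p-HFSC library. Dlgap5, a mitotic gene 1.62 kb from Lgals3, was at 19.1 and 12.0 against 15.7 and 27.1 (limma adjusted p = 0.45), and Nos2, the inducible nitric oxide synthase gene 2.72 kb from Lgals9, had no FPKM above 0 at 10 passages and 1.51 and 0.304 at 48 passages.

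Genes with the most similar pattern were taken as those at the smallest Euclidean distance over the 4 libraries on the log2(FPKM + 1) scale. Nearest to Lgals7 were Bcl2l15 (distance 1.38), Anxa8 (1.41) and Htra1 (1.71), nearest to Lgals3 were Fgfbp1 (0.70), 2200002D01Rik (0.76) and Cyr61 (0.88), and nearest to Lgals9 was Serpinb5 (0.20), the maspin gene of epithelial cells. Lgals1 was closest to Rps2 (0.51) and Rpl35a (0.58), which encode ribosomal proteins, and to the ferritin gene Ftl1 (0.60). These genes shared with Lgals1 the large gap between the 48p-HFSC replicates, with Rps2 at 2772 and 8963 in 48p-HFSCs. Likewise Angptl2 (0.48), the nearest to Lgals3bp, was at 53.9 and 6.49 in 48p-HFSCs. Distances over 4 libraries mostly follow level and group and carry no test.

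Galectins act on sugars made by Golgi enzymes, and 24 of 38 such enzyme genes were tested, 2 of them called higher and 4 lower, beside 10.8% and 9.15% of all tested genes. The median difference was 0.12, beside -0.03 for all genes. This list and those of partners and endomembrane damage genes below were written with earlier results of these data known. Their calls and p-values are therefore descriptive. In the group that builds N-acetyllactosamine, the preferred ligand, B4galt3 rose from 17.3 and 17.3 to 33.5 and 59.5, a log2 difference of 1.32 (limma adjusted p = 0.042). B4galt5, a galactosyltransferase that also makes lactosylceramide, fell from 8.93 and 9.62 to 0.0442 and 0, passing the filter only through the 10p-HFSC libraries, so that it had to differ and no p-value is given. B4galt1, the main enzyme of this step in many cells, was at 33.4 and 35.4 against 43.3 and 38.6 and was not called (limma adjusted p = 0.50).
Among the enzymes of N-glycan branching, Man2a2, a Golgi mannosidase gene, fell from 14.8 and 12.1 to 4.23 and 3.30 (log2 difference -1.60, limma adjusted p = 0.015). Mgat5, whose branch carries high-affinity galectin-3 ligands, was low in every library, at 2.17 and 0.753 against 2.13 and 1.33 (limma adjusted p = 0.72). Mgat2, the branching enzyme upstream of it, was at 16.3 and 16.9 against 11.5 and 2.26, the last in replicate 2 of 48p-HFSCs (limma adjusted p = 0.15).
Of the capping enzymes 1 was called higher and 2 lower. St6gal1, whose sialic acid linkage is known to block galectin-1, fell from 37.4 and 33.7 to 17.2 and 12.5 (log2 difference -1.22, limma adjusted p = 0.029). St3gal6 fell from 4.68 and 4.37 to 0.0424 and 0 and St3gal1, which caps core O-glycans, rose from 0.657 and 0.575 to 7.72 and 9.79, the former passing the filter only through the 10p-HFSC and the latter only through the 48p-HFSC libraries. St3gal2, St3gal3 and St3gal4 were not called (limma adjusted p = 0.067, 0.84 and 0.25). When libraries were rescaled to TPM, 1 enzyme was called higher and 2 lower, and St6gal1, Man2a2 and B4galt3 were among the calls lost. The differences of St6gal1 and Man2a2 were then larger (-1.78 and -2.13) with larger standard errors (0.58 and 0.75), and that of B4galt3 was smaller (0.76).

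Of 29 genes for proteins that galectins are described to bind, 25 were tested, with 5 called higher and 3 lower, beside 10.8% and 9.15% of all tested genes. Their median difference was 0.36, and under rescaling to TPM 2 were called higher and 5 lower. Of 5 integrin subunit genes 2 were called higher and 0 lower. Itga3 and Itgav were not called (limma adjusted p = 0.11 and 0.72), nor was Itgb1, at 281 and 206 FPKM against 108 and 151 (limma adjusted p = 0.12). Itga5 was at 0.0352 and 0 FPKM at 10 passages against 6.88 and 5.88 at 48 passages, and passed the filter only through the latter. Itga6, the CD49f antigen used for the sort, was at 31.4 and 20.8 against 101 and 79.0 (log2 difference 1.77, limma adjusted p = 0.014). Lama5, a laminin chain of the basement membrane, rose from 22.6 and 20.4 to 41.4 and 64.0 (log2 difference 1.22, limma adjusted p = 0.038). The calls of Itga6 and Lama5 were lost under rescaling to TPM (log2 differences 1.20 and 0.66, limma adjusted p = 0.14 and 0.36). Cd7 and Spn, genes of leukocyte glycoproteins, were called higher at levels below 8 in every library. Cd7 passed the filter only through the 48p-HFSC libraries, and Spn had a log2 difference of 1.15 (limma adjusted p = 0.033).
Tfrc, the transferrin receptor, fell from 209 and 189 to 19.0 and 34.9 (log2 difference -2.90, limma adjusted p = 0.0043). Nrp1, the neuropilin bound by galectin-1, fell from 45.7 and 30.7 to 15.9 and 12.3 (log2 difference -1.36, limma adjusted p = 0.030). Bcl2, an inhibitor of apoptosis, was at 2.18 and 2.12 at 10 passages and was listed at 0 in each 48p-HFSC library, and passed the filter only through the 10p-HFSC libraries. Abundant partners, among them Lamp1 (361 and 353 against 224 and 289) and the E-cadherin gene Cdh1 (93.1 and 75.2 against 102 and 113), were not called (limma adjusted p = 0.36 and 0.39).
Galectins 3, 8 and 9 are recruited to damaged endosomes and lysosomes, and of 21 genes of that response 20 were tested, 2 called higher and 1 lower, with a median difference of -0.06. With 10.8% and 9.15% of all tested genes called, these counts are near the background. The increases were those of the autophagy receptor gene Optn, from 5.26 and 5.41 to 30.8 and 23.8, and of Calcoco1, from 4.63 and 3.23 to 22.1 and 25.4 (log2 differences 2.15 and 2.34, limma adjusted p = 0.0047 and 0.0044). Both calls were lost under rescaling to TPM, with limma adjusted p of 0.13 and 0.10. Tfeb, a regulator of lysosomal genes, fell from 2.62 and 3.88 to 0.0854 and 0 and passed the filter only through the 10p-HFSC libraries. Calcoco2, the receptor that binds galectin-8 in human cells, was at most 0.150 in any library, and Trim16, a ligase that binds galectin-3, was at 3.12 and 2.96 against 5.09 and 3.40 (limma adjusted p = 0.40).

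**Figure D5:**
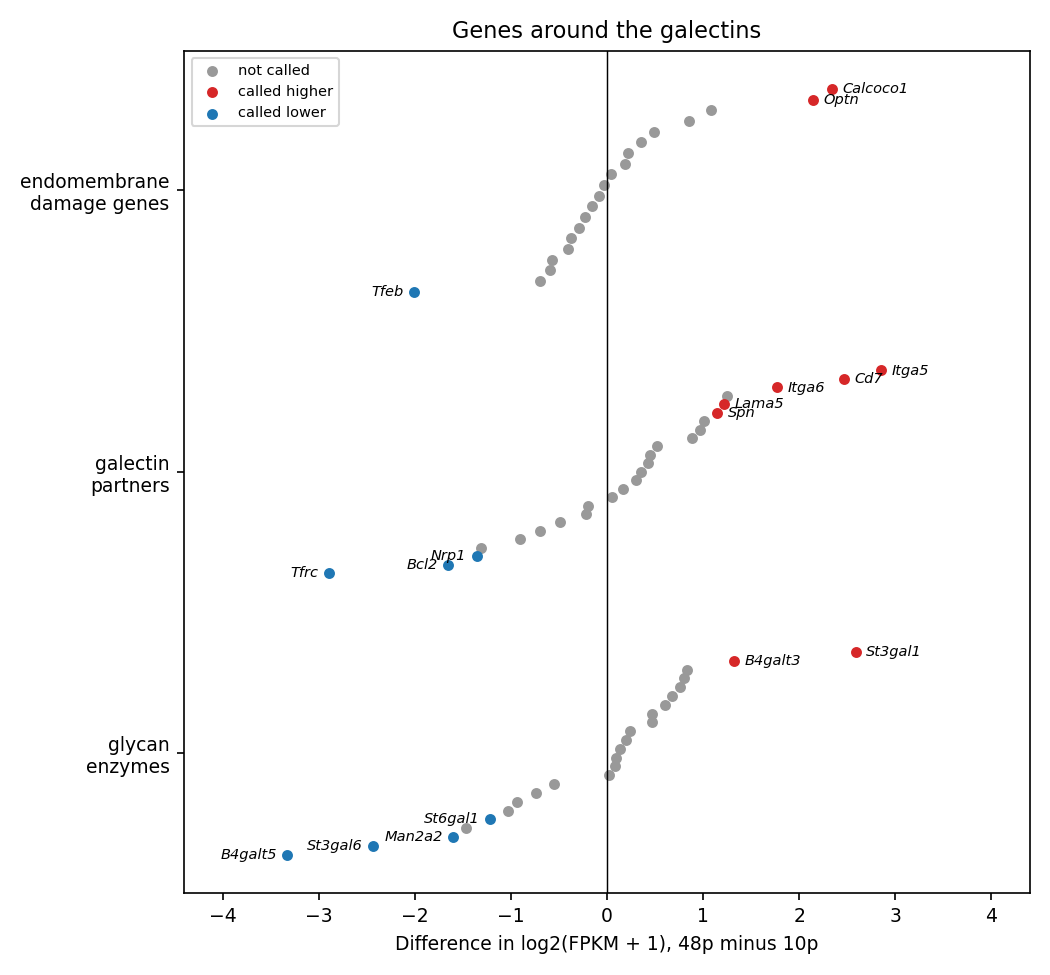
Difference in log2(FPKM + 1), 48p- minus 10p-HFSCs, of each tested gene of the 3 lists, ordered by size within a list, with called genes in red (higher) or blue (lower) and named. Most genes lie within 1 of 0, and called genes are found on both sides in each list.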

How the data were processed

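Polyadenylated RNA was read from one end with a stranded kit in 2 libraries of 10p-HFSCs and 2 of 48p-HFSCs, grouped by their labels. The authors mapped reads to mm10 with TopHat2 2.1.1, Bowtie2 and SAMtools and deposited 1 FPKM value per gene symbol and library from the Cufflinks suite (Cuffdiff 2.2.1 in the submitters' processing notes). For Bowtie2 and SAMtools, the submitters' processing notes (2.2.8 and 0.1.18) and the paper name different versions. The gene annotation, the strand setting and the handling of multi-mapped reads are not given in the sources used here. FPKM are not counts, so no count test was run.

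The 11018 genes that reached an FPKM of 1 in 2 or more libraries were compared on log2(FPKM + 1) with limma 3.58.1 in R 4.3.3 (lmFit, eBayes with a trend, Benjamini-Hochberg adjustment over all of them) and a gene was called if its adjusted p-value was below 0.05 and its difference 1 or more in size. With 2 libraries against 2, an exact two-sided permutation test cannot give a p-value under 0.333. The fit was also run on simulated data with errors drawn independently for each gene and library. That run does not cover deviations shared along transcript length or between same-numbered libraries. Gene positions and transcript lengths came from GENCODE M21 and promoters from RefSeq. Relative depth came from genes with an FPKM under 0.3 in both of a pair of libraries. Absolute depth is unknown, so no counting interval is given.

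The galectin genes and all lists (enzymes, partners, endomembrane damage, markers) were chosen with earlier results of these data known. Named were all 7 members, the other family genes and called list genes (up to 4 by size in each direction, all where a count was 5 or fewer). The neighbours and the 3 most similar genes of each member were named only in part. B4galt1, Mgat2, Mgat5, St3gal2, St3gal3, St3gal4, Itgb1, Itga3, Itgav, Lamp1, Cdh1, Calcoco2 and Trim16 were named after their values were seen. Alternatives were a pseudocount of 0.1, no filter, TPM, median-of-ratios and quantile scaling, the replicate block, leaving out each library, and, added after seeing the data, a correction for transcript length and GC content by splines.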

Additional observations from a re-analysis of the deposited data

How the results depend on the processing

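Over all genes, 623 were called higher under TPM (1189 as reported) and 637 lower without the filter on low values (1008 as reported). Under TPM, 1 glycan enzyme was called higher and 2 lower, 2 galectin partners higher and 5 lower, and 0 endomembrane damage genes higher (limma), and the median of the galectin genes was 0.39. Without the filter, 1 glycan enzyme and 3 partners were called higher. Quantile normalization called 1 galectin gene lower, Lgals1. The median of the galectin genes was 0.60 after the correction for length and GC content. The cause of these shifts was not tested.

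With single libraries left out, which assumes that the lone library of a group varies like the other group, calls over all genes ranged from 35 to 1936 higher and from 140 to 1875 lower, the lowest without a 10p-HFSC library and the highest without replicate 1 of 48p-HFSCs. Galectin genes ranged from 1 to 3 higher and from 0 to 2 lower, glycan enzymes from 0 to 3 and from 2 to 7, partners from 0 to 8 and from 0 to 3, and endomembrane damage genes from 0 to 4 and from 0 to 2. In single-gene comparisons with an alternative, calls of genes other than the 7 were lost 66 times and gained 21 times, and no called gene changed sign. Of the 7, Lgals3 and Lgals8 were not called without either 10p-HFSC library, Lgals4 and Lgals3bp were called lower without replicate 1 of 48p-HFSCs, and the uncalled differences of Lgals1 (0.73 without replicate 1 of 48p-HFSCs) and Lgals3bp (0.10 without replicate 1 of 10p-HFSCs and 1.07 without replicate 2 of 48p-HFSCs) turned positive.

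The labels do not say whether same-numbered libraries of the groups share anything beyond the number, and their deviations correlated at r = 0.41. With the replicate block, 1613 genes were called higher and 1497 lower, 3 of them galectin genes higher. Absolute depth is unknown, which limits the low values of Lgals4 and Lgals7.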
